A study of Rattus norvegicus with 18 samples.

Results

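Expression of genes for globin, haem synthesis and erythroid regulation was followed in peripheral blood mononuclear cells (PBMC) of 18 rats on 3 diets. The set held 9 genes chosen by name: the beta globins Hbb and Hbb-b1, the haem enzymes Alas2 and Fech, the globin chaperone Ahsp, the nuclear factors Gata1, Klf1 and Hemgn, and the transferrin receptor Tfrc. Each was looked up in the arrays' gene name column, where Ahsp carries its older name Eraf and some names end in "predicted". Matched to current symbols where possible, the 41012 probes of the arrays stand for 35652 gene names. Of these probes 19524 matched a current gene, and the others keep the name in the files. Counts of all genes below are counts of such names. Of the 9 genes, 8 were found in the gene name column, through 10 probes. The filter asked that a rat's Cy5 signal pass the scanner's background flag on 5 or more of the 18 arrays. It kept 9 of these 10 probes, at least 1 for each of the 8 genes, among 25207 probes in all, and these 9 were above background on 18 of 18 arrays. The remaining probe, 1 of 3 for Tfrc, was above background on 0 arrays and its values are not used. Hbb-b1 had no probe under its own name. A probe named MGC72973 in the files carries RefSeq accessions of both Hbb-b1 and Hbb, so the beta globin copies cannot be told apart on it, and it is reported beside the members as the Hbb-b1 probe.

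The animals were male Wistar rats, 2 months old when the feeding began, which ate their diet for 4 months and went without food for 14 h before the end. Energy in the low-fat control diet (LFD, 6 rats, eaten freely) came to 10% from fat, 20% from protein and 70% from carbohydrate. In the high-fat diet (HFD, 6 rats) these shares were 60%, 20% and 20%, and in the high-protein diet (HPD, 6 rats, mainly casein) 10%, 45% and 45%, both fed in daily portions of the same energy as the LFD rats had eaten. PBMC were separated on a Ficoll gradient from heparinised leg vein blood, and the RNA of a single rat, in the dye Cy5, was hybridised with a pool of the samples in the dye Cy3. A value is therefore the log2 ratio of a rat to the pool, and 0 means the level of the pool. Because PBMC are a mixture, fewer cells of a type and less RNA per cell cannot be told apart in any of these values.

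Between 53.3 and 63.5% of spots were well above background in Cy5. Median Cy5 signals were 61.5 to 84.3 intensity units before background subtraction, unlike the processed signals used elsewhere. LFD replicates 2 and 6 had the widest ratios, with 11.7 and 15.7% of probes more than 1 log2 unit from the pool, against 3.3 to 6.84% on the other arrays, so differences from LFD are given without them where they move. The array counted as HPD replicate 7 has an HFD title, while its source name and description say HPD. The arrays lay on 5 slides, and slide 1 held LFD replicates 1 and 2 and HFD replicates 1 and 2 but no HPD array.

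Haemoglobin is assembled in developing red cells from alpha and beta globin chains and haem. Alas2, the erythroid form of aminolevulinate synthase, starts haem synthesis in mitochondria, and ferrochelatase, the product of Fech, completes it by inserting iron into protoporphyrin. Ahsp holds free alpha globin in a stable form. Gata1 and Klf1 are transcription factors that switch on globin and haem genes, Gata1 also acts in megakaryocytes and platelets descend from these, and Hemgn encodes hemogen, a nuclear protein of blood cell precursors. Tfrc takes up transferrin-bound iron and is made both by erythroid precursors and by dividing lymphocytes. Mature red cells have no nucleus, and reticulocytes, the young red cells in blood, still hold such RNA. A density gradient removes most red cells from PBMC.

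Of the listed markers with a probe, 9 of 9 T cell, 6 of 6 B cell, 7 of 8 NK cell and 7 of 7 monocyte markers passed the filter. Over the whole array, 21595 of 35652 gene names passed it. Markers of cells that are not mononuclear leukocytes were also measured. Of those with a probe, 9 of 10 platelet, 6 of 7 reticulocyte and red cell, and 5 of 10 neutrophil markers passed. The summed Cy5 signal of the 6 red cell markers ran from 1070 to 5730 units in LFD, 850 to 9390 in HFD and 1300 to 4600 in HPD. That of the 9 platelet markers ran from 186000 to 1010000 in LFD, 107000 to 782000 in HFD and 163000 to 356000 in HPD.

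Promoter sequences are shown for both beta globins, for Alas2 and Hemgn, whose RNA varied together with Hbb across the rats, and for Gata1, whose RNA did not. No RNA value belongs to Hbb-b1 alone, as said above. Each run is the 250 bases before a transcript start, 5′ to 3′, from RefSeq on the rat assembly GRCr8; windows of 8 of the 9 members were used. Capitals mark GATA motifs of 4 forms (AGATAA in the first, TGATAA in the second, AGATAG in the third and TGATAG in the fourth), CACCC-like boxes (CCNCNCCC) and TATA boxes (TATAAA), searched on both strands and allowed to overlap. Over the same 250 bases of all 33469 rat promoters, 27% held at least 1 of these GATA motifs, 42.8% a CACCC-like box and 12.9% a TATA box.
Hbb (chr1:167663722-167663971, minus strand): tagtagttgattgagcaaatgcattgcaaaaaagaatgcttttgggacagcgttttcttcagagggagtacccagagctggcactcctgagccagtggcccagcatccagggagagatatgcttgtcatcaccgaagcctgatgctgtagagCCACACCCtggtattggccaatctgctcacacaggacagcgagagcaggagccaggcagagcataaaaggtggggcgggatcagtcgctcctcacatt
Hbb-b1 (chr1:167643521-167643770, minus strand): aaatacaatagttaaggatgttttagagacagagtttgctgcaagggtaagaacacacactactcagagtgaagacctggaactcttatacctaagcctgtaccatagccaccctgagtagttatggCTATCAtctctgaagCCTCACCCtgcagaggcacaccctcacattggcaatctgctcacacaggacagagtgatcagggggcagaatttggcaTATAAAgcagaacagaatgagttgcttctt
Alas2 (chrX:22895200-22895449, plus strand): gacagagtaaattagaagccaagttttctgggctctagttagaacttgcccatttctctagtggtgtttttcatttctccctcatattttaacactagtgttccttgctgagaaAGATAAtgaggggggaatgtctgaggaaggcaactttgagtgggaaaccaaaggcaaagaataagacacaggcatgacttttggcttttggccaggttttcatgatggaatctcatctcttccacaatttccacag
Hemgn, second listed start (chr5:65485822-65486071, minus strand): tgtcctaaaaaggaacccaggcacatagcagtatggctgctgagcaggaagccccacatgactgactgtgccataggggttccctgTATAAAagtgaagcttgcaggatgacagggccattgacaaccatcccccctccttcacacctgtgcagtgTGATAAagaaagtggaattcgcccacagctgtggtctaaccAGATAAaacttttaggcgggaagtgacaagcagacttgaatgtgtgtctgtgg
Gata1 (chrX:17201387-17201636, plus strand): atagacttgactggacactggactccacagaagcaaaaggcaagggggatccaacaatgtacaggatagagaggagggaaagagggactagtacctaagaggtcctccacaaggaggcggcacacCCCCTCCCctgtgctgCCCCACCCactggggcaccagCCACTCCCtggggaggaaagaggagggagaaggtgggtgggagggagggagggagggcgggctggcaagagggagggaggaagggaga
Hbb-b1 and Alas2 each held 1 GATA motif and this Hemgn start held 2, while the Hbb and Gata1 windows held 0. The first listed Hemgn start, not printed, held 0 GATA motifs, 1 CACCC-like box and 0 TATA boxes, and the printed start was picked with its motifs known. Of the members not printed, Fech and Klf1 each held 1 GATA motif and Tfrc 0. CACCC-like boxes numbered 1 in Hbb, 1 in Hbb-b1, 3 in Gata1, 2 in Fech and 2 in Tfrc. These are matches of letters and were not measured as binding sites.

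Beta globin RNA ranged widely among the rats of every diet. The Hbb probe (rn4, chromosome 1, 161620134 to 161620193) read -1.87, -0.20 and 1.15 in LFD, giving the lowest, median and highest log2 ratio, -1.32, 0.50 and 0.89 in HFD, and -2.03, -1.0 and 0.03 in HPD. The lowest and highest rats stood 9.07-fold apart. LFD replicates 1, 2 and 3 and HFD replicates 1, 2, 3 and 6 were above the pool, HPD replicate 3 was at it, the other rats were below it, and the 3 groups overlapped. Group means were -0.19 ± 1.24 (SD, n = 6) in LFD, 0.05 ± 0.99 in HFD and -0.97 ± 0.84 in HPD.

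The Hbb-b1 probe (rn4, chromosome 1, 161590680 to 161590739) gave nearly the same picture, with -1.10, -0.06 and 1.35 in LFD, -1.43, 0.63 and 1.30 in HFD, and -1.44, -1.11 and 0.35 in HPD. Over the 18 arrays it correlated with Hbb at a Pearson r of 0.92 and a Spearman rho of 0.92 (two-sided permutation tests, adjusted p = 1e-05 for both over 6 pairs, the smallest 100000 resamples can give). The r was 0.91 without the 2 arrays farthest from the median and 0.91 within slides. The probes parted on LFD replicate 6, where Hbb read -1.87 and the Hbb-b1 probe -0.38, and on HPD replicate 7, where they read -2.03 and -1.28. On the other 16 arrays they lay within 0.50 log2 units of each other. An alpha globin probe (Hba-a3 by accession, LOC287167 in the files, no member) followed the Hbb-b1 probe at r = 0.99 and rho = 0.96 and read -0.49 on LFD replicate 6 (adjusted p = 1e-05 for both over the same 6 pairs, r = 0.99 without the 2 farthest arrays and 0.99 within slides). The low Hbb value of that rat was therefore not shared by the other globin probes.

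Both haem enzymes varied widely. Alas2 had a smaller span than the globin probes, and Fech had a larger one only through the low value of LFD replicate 6. Alas2 (rn4, chromosome X, 39810353 to 39810412), the first enzyme, read -1.0, -0.14 and 1.17 in LFD, -1.33, 0.27 and 1.17 in HFD, and -1.47, -0.84 and 0.07 in HPD, a 6.22-fold span. The rats high for Hbb were high for Alas2, and 2 of 6 HPD rats lay above the pool, by at most 0.07. Its means were 0.02 ± 0.85 (SD, n = 6), 0.03 ± 1.08 and -0.71 ± 0.67 in LFD, HFD and HPD.

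Fech (rn4, chromosome 18, 60680214 to 60680273), the last enzyme, had the widest span, 12.6-fold, which rested on LFD replicate 6. Without that array Fech ran from -1.20 to 1.23, a narrower span than the -1.47 to 1.17 of Alas2. It read -2.43, -0.08 and 1.23 in LFD, -0.97, 0.34 and 1.13 in HFD, and -1.20, -0.76 and -0.07 in HPD. All 6 HPD rats were below the pool, but LFD replicate 6 lay far under all of them, and the groups overlapped. On that array the log2 ratio of Fech less that of Alas2 was -1.93, where on the other arrays it ranged from -0.62 to 1.01. Group means of Fech were -0.21 ± 1.41 (SD, n = 6), 0.11 ± 0.83 and -0.71 ± 0.47.

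**Figure D1:**
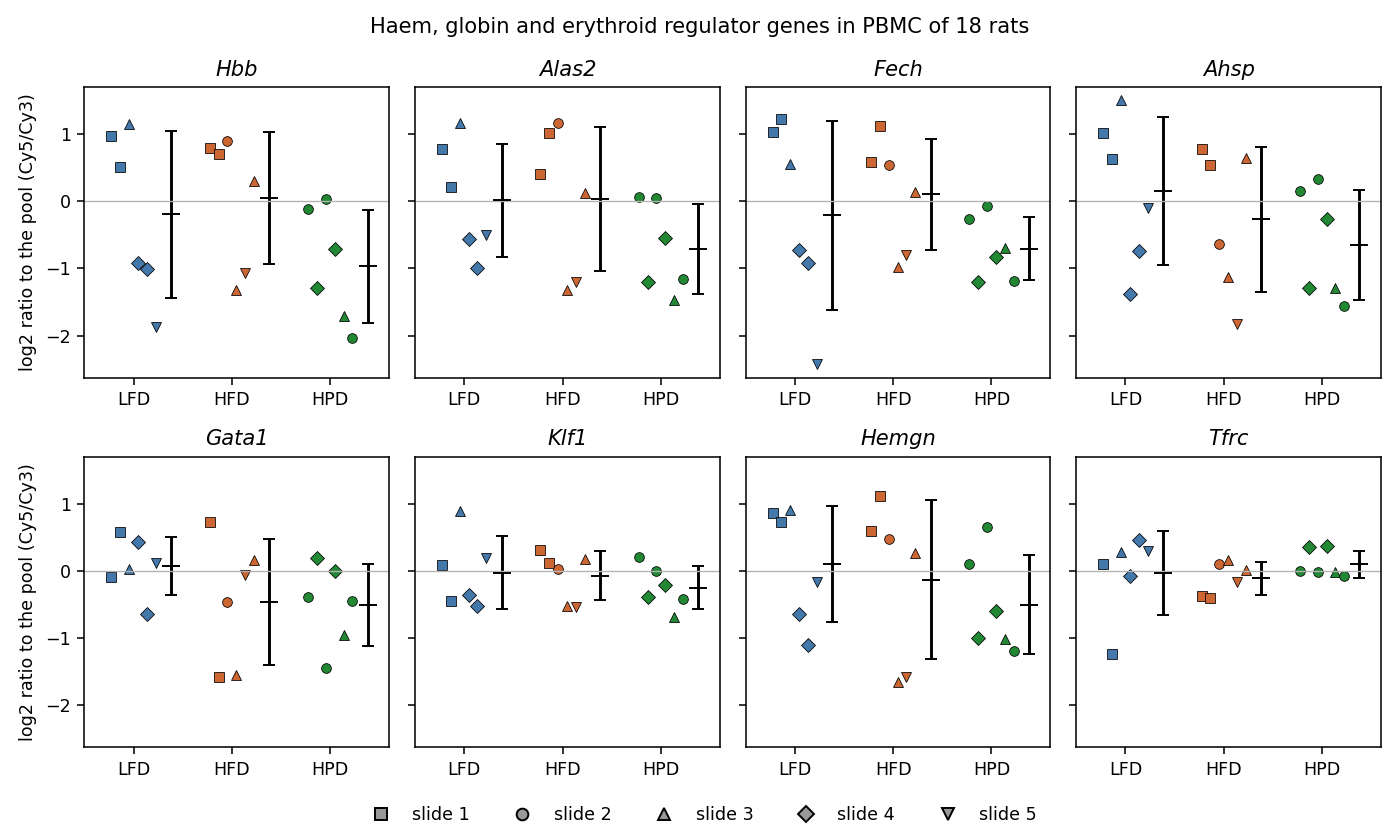
Log2 ratio to the pool of 8 genes (vertical axis) in each of 18 rats, grouped by diet, with symbols for the slide and black bars for the mean ± SD of 6 rats. The diets overlap for every gene, and the slide 1 arrays (squares) are above the pool for Hbb, Alas2, Fech, Ahsp and Hemgn.

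Ahsp (rn4, chromosome 1, 187561567 to 187561626), the alpha globin chaperone, spanned 10.1-fold. Its lowest, median and highest ratios were -1.38, 0.27 and 1.50 in LFD, -1.83, -0.05 and 0.79 in HFD, and -1.56, -0.77 and 0.33 in HPD. High and low rats were mostly those of Alas2, but HFD replicate 3 read -0.63 for Ahsp and 1.17 for Alas2.

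Hemgn (rn4, chromosome 5, 62955595 to 62955654) spanned 6.83-fold, with -1.10, 0.29 and 0.91 in LFD, -1.66, 0.37 and 1.12 in HFD, and -1.19, -0.80 and 0.66 in HPD. HFD replicates 4 and 5 were the lowest rats and HFD replicate 2 the highest, so the HFD rats alone covered the whole range. Klf1 (rn4, chromosome 19, 24907094 to 24907153) moved less, over 2.99-fold: -0.52, -0.13 and 0.90 in LFD, -0.53, 0.08 and 0.31 in HFD, and -0.68, -0.30 and 0.21 in HPD. The spread of Klf1 over the arrays (SD 0.41) was near the median probe (0.36). Hbb, Alas2, Fech, Ahsp and Hemgn, with SDs of 0.90 to 1.07, exceeded at least 96.2% of probes.

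Gata1 (rn4, chromosome X, 26570758 to 26571261) had high and low rats of its own. It read -0.64, 0.08 and 0.58 in LFD, -1.58, -0.26 and 0.72 in HFD, and -1.45, -0.42 and 0.20 in HPD. HFD replicate 2, above the pool for Hbb, Alas2, Fech, Ahsp and Hemgn, was the lowest of all for Gata1, and HPD replicate 3, near the pool for Hbb, Alas2 and Fech and above it for Ahsp and Hemgn, read -1.45. The means of 0.07 ± 0.43 (SD, n = 6), -0.46 ± 0.94 and -0.51 ± 0.61 in LFD, HFD and HPD came from overlapping groups.

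Tfrc varied least apart from a single rat. Its brighter probe (rn4, chromosome 11, 69976628 to 69976687) read -1.24, 0.19 and 0.46 in LFD, -0.40, -0.08 and 0.16 in HFD, and -0.07, -0.01 and 0.37 in HPD. Its second probe (69977361 to 69977420), spotted 10 times on each array, read -0.86, 0.42 and 0.58, then -0.04, 0.01 and 0.60, then -0.17, 0.23 and 0.57. LFD replicate 2 was the lowest array on both probes, and the groups overlapped on both.

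To compare the diets, limma was fitted to all 25207 probes. No member passed in any comparison at an adjusted p under 0.05, and neither did any other probe: 0% passed in each of the 3 comparisons. At an unadjusted p under 0.05 limma gave 506 probes (2.01%) for HFD against LFD, 716 (2.84%) for HPD against LFD and 761 (3.02%) for HPD against HFD, and 0 of the 9 member probes was among them. Limma's test for any diet also called 0%. With array weights, limma called 2 probes for HPD against LFD, of Rarres2 and Fscn3, and no member. Diet groups did not overlap for 0.0833, 0.0793 and 0.242% of probes in these comparisons, and for 0 members.

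The high-protein rats had the lowest mean for 7 of the 8 genes, all but Tfrc, and none of these differences passed the test. Relative to LFD, the mean log2 ratio in HPD differed for Hbb by -0.78 ± 0.55 (SE, 95% interval -1.94 to 0.39), for Alas2 by -0.72 ± 0.47 (-1.72 to 0.27) and for Ahsp by -0.81 ± 0.54 (-1.95 to 0.33). Hemgn stood at -0.60 ± 0.51, Gata1 at -0.58 ± 0.37, Fech at -0.50 ± 0.53, Klf1 at -0.22 ± 0.23 and Tfrc at 0.13 ± 0.22, each with an adjusted p of 1 by limma. Below 0 were 8 of the 9 member probes, with a median of -0.58, where 46.1% of all probes were below 0 and their median was 0.02. The members vary together, so these 8 are not separate observations. Hemgn, Gata1 and Klf1 were dim, with median Cy5 signals of 96.8, 134.5 and 174.9 units, against 11280 for Hbb. With normexp background correction on all spots they stood at -0.285, -0.21 and -0.116, and the median over member probes at -0.285. Hbb, Alas2, Ahsp and Fech then stood at -0.823, -0.702, -0.785 and -0.681. With Cy5 alone, Hbb stood at -0.448 and Fech at -0.255, but Alas2 at -0.792 and Ahsp at -1.02.

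Against HFD, the mean in HPD differed by -1.02 ± 0.55 log2 units for Hbb (SE, 95% interval -2.19 to 0.15, 2.03-fold lower), the largest difference of any member. The Hbb-b1 probe differed by -0.99 ± 0.54, Fech by -0.81 ± 0.53 and Alas2 by -0.74 ± 0.47, each with an adjusted p of 0.995 by limma. For Hbb, 6 of 6 HPD rats lay below the HFD mean, but so did HFD replicates 4 and 5. With the array of conflicting labels counted as HFD, the difference was -0.51 for Hbb, -0.48 for Alas2, -0.53 for Fech, -0.10 for Klf1, -0.09 for Hemgn and -0.02 for Ahsp. Gata1 differed by -0.05 ± 0.37 and Tfrc by 0.21 ± 0.22. Below 0 were 7 of 9 member probes, against 47.7% of all probes. This comparison and the one with LFD share the HPD rats.

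Between HFD and LFD the means differed by 0.25 ± 0.55 for Hbb, 0.02 ± 0.47 for Alas2, 0.31 ± 0.53 for Fech, -0.43 ± 0.54 for Ahsp, -0.23 ± 0.51 for Hemgn, -0.04 ± 0.23 for Klf1, -0.53 ± 0.37 for Gata1 and -0.08 ± 0.22 for Tfrc (log2 ± SE, adjusted p = 1 by limma). The intervals were wide, as for Alas2 from -0.98 to 1.01, so the test leaves room for a difference of either sign. For Gata1 and Ahsp this comparison gave a larger difference than HPD against HFD (-0.38 for Ahsp), and for the other 6 genes a smaller one. Without LFD replicate 6, Hbb stood at -0.09 and Fech at -0.13, and leaving out each array in turn moved Ahsp between -0.73 and -0.11 and Gata1 between -0.77 and -0.31. Of the 9 member probes 6 were below 0, against 48.5% of all probes.

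**Figure D2:**
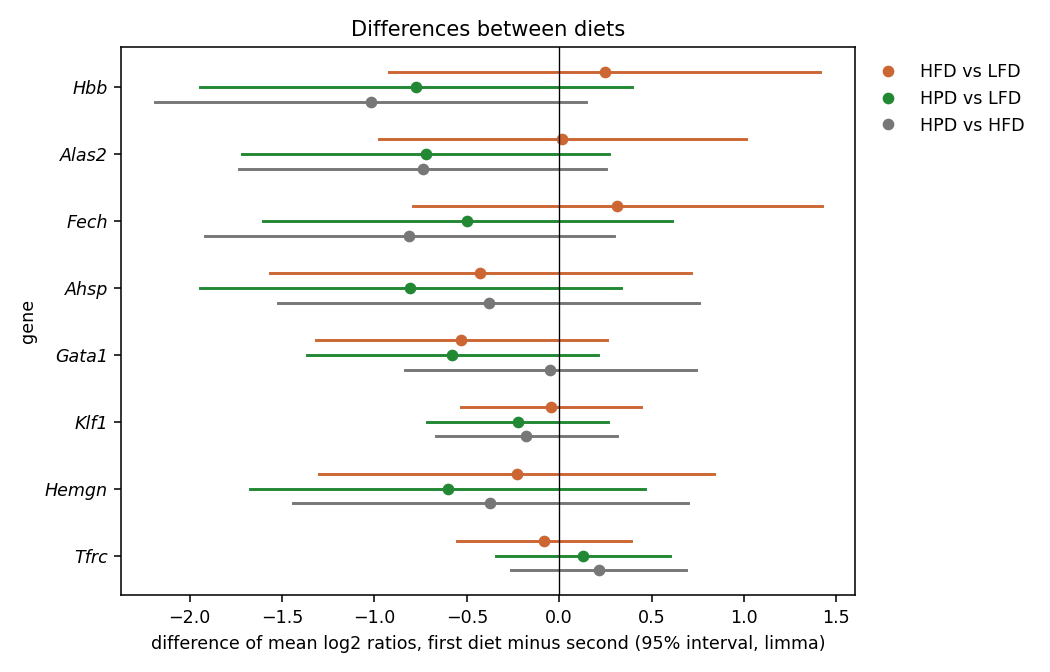
Difference of mean log2 ratios between 2 diets (horizontal axis, first diet minus second) for 8 genes, as points with 95% intervals from limma. Every interval crosses 0, and the HPD points lie left of 0 for all genes but Tfrc.

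The HPD differences moved with the libraries and slides included. Without LFD replicate 6, HPD against LFD stood at -1.11 for Hbb and -0.94 for Fech, without LFD replicate 2 Fech stood at -0.21 and Tfrc at -0.11, and without LFD replicate 3 Hbb stood at -0.51 and Klf1 at -0.04. In HPD against HFD, Ahsp stood at -0.17 without HFD replicate 1 and Hemgn at -0.12 without HFD replicate 2. Slide 1, which held no HPD array, had high ratios: Hbb averaged 0.75 on its 4 arrays and -0.69 on the other 14, Alas2 0.60 and -0.46, Fech 1.00 and -0.63, Ahsp 0.75 and -0.54, and Hemgn 0.83 and -0.46. These 5 genes were above the pool in all 4 slide 1 rats. Outside it, LFD replicate 3 and HFD replicate 3 were as high for Hbb and Alas2.

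Within slides the picture was mixed. On slide 4, with 2 HPD and 2 LFD rats, the differences for Hbb, Alas2, Fech, Ahsp, Klf1 and Hemgn ran from -0.19 to 0.29, with 3 of 6 below 0. On slide 3, with 1 rat each, they ran from -2.85 to -1.25. Against HFD, the differences of these 6 genes ran from -1.6 to 0.28 on slide 2, with 5 of 6 below 0. That slide held 3 HPD rats and 1 HFD rat. On slide 3, with 1 HPD and 2 HFD rats, the differences from HFD ran from -1.20 to -0.28. Without slide 1, HPD against LFD stood at -0.31 for Hbb, -0.48 for Alas2, -0.25 for Hemgn and 0.17 for Fech, whereas slide as a fixed block gave -1.0, -1.04, -0.67 and -0.52. Without slide 1, HPD against HFD stood at -0.67 for Hbb, -0.40 for Alas2, -0.435 for Fech, -0.04 for Klf1, 0.09 for Ahsp and 0.12 for Hemgn. With diet in the model, 89 probes (0.353%) passed limma's test for slide and 0 members did. Fech was nearest (adjusted p = 0.0765), with 0.182 for Hemgn, 0.201 for Hbb and 0.231 for Alas2.

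The rats differed from each other in a way most members shared. Over 18 arrays Alas2 correlated with Hemgn at r = 0.93 (rho 0.89), Hbb at 0.92 (0.90), Ahsp at 0.82 (0.79), Klf1 at 0.79 (0.76) and Fech at 0.78 (0.78). The two-sided permutation tests adjusted over 7 genes gave p of 3.5e-05 for Hemgn and Hbb and 0.000182 for the others, and 3.5e-05 to 0.000504 for rho. Gata1 (r = 0.10, rho 0.15, adjusted p = 0.682 and 0.553) and Tfrc (-0.24, -0.18, adjusted p = 0.414 and 0.553) did not follow Alas2. Over all probes the median r with Alas2 was -0.02, and 0.176% exceeded 0.8.

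The correlations with Alas2 also held within slides and without the 2 rats highest for Alas2. The rats lowest for Alas2 were not left out. Within slides, r with Alas2 was 0.90 for Hemgn, 0.90 for Hbb, 0.84 for Klf1, 0.76 for Ahsp and 0.68 for Fech, and within diets 0.76 to 0.95. Without LFD replicate 3 and HFD replicate 3, the 2 arrays farthest from the Alas2 median, it was 0.96, 0.90, 0.78, 0.91 and 0.77. Gata1 stayed low at 0.24 within slides, and the sign for Tfrc turned, to 0.29. Among all 15 pairs of these 6 genes, r ran from 0.38 to 0.93 and 14 had an adjusted permutation p under 0.05 over 28 pairs. The exception was Fech with Klf1 (r = 0.38, rho 0.38, adjusted p = 0.206 and 0.2). That r was 0.76 without the 2 arrays farthest from the Fech median and 0.33 within slides. Other pairs with Fech were also smaller within slides, Ahsp at 0.35 in place of 0.66 and Hemgn at 0.53 in place of 0.76. Hbb with Fech stood at 0.86 in place of 0.91. All 7 pairs with Gata1 ran from -0.18 to 0.19.

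**Figure D3:**
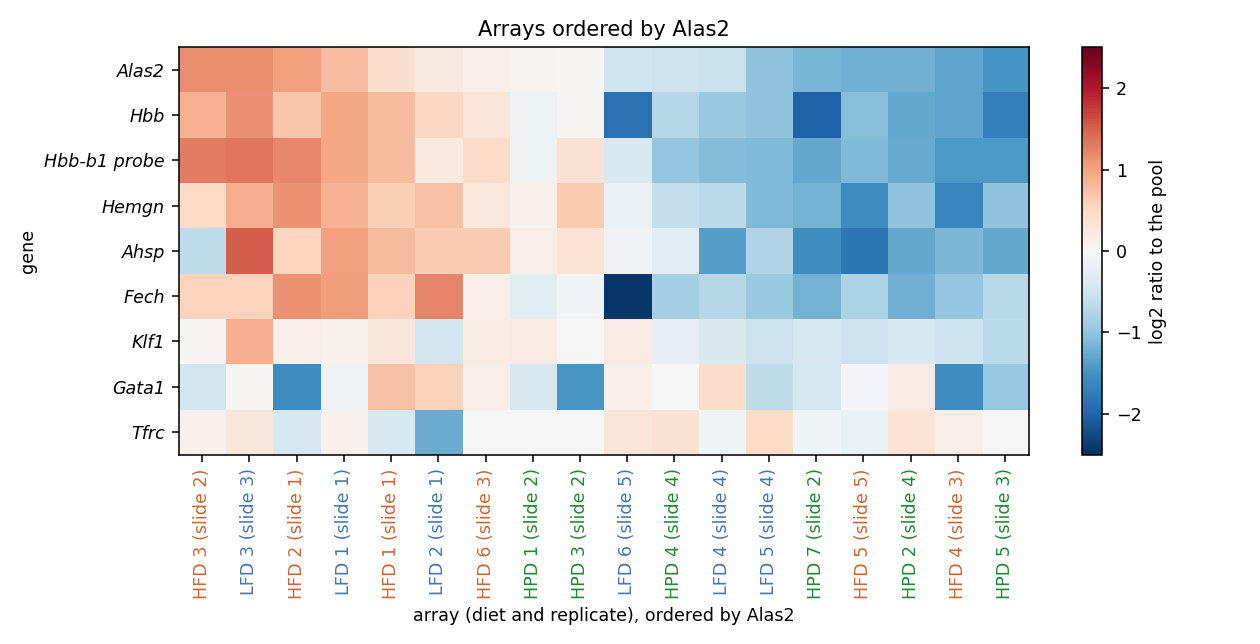
Log2 ratio to the pool (colour) of 8 genes and the Hbb-b1 probe in 18 rats, ordered from high to low Alas2 and labelled by diet, replicate and slide. Hbb, the Hbb-b1 probe, Hemgn, Ahsp and Fech mostly follow Alas2 from red to blue. Hbb and Fech depart most on LFD replicate 6 and Ahsp on HFD replicate 3. Smaller departures lie on other arrays, as Fech 1.01 above Alas2 on LFD replicate 2.

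**Figure D4:**
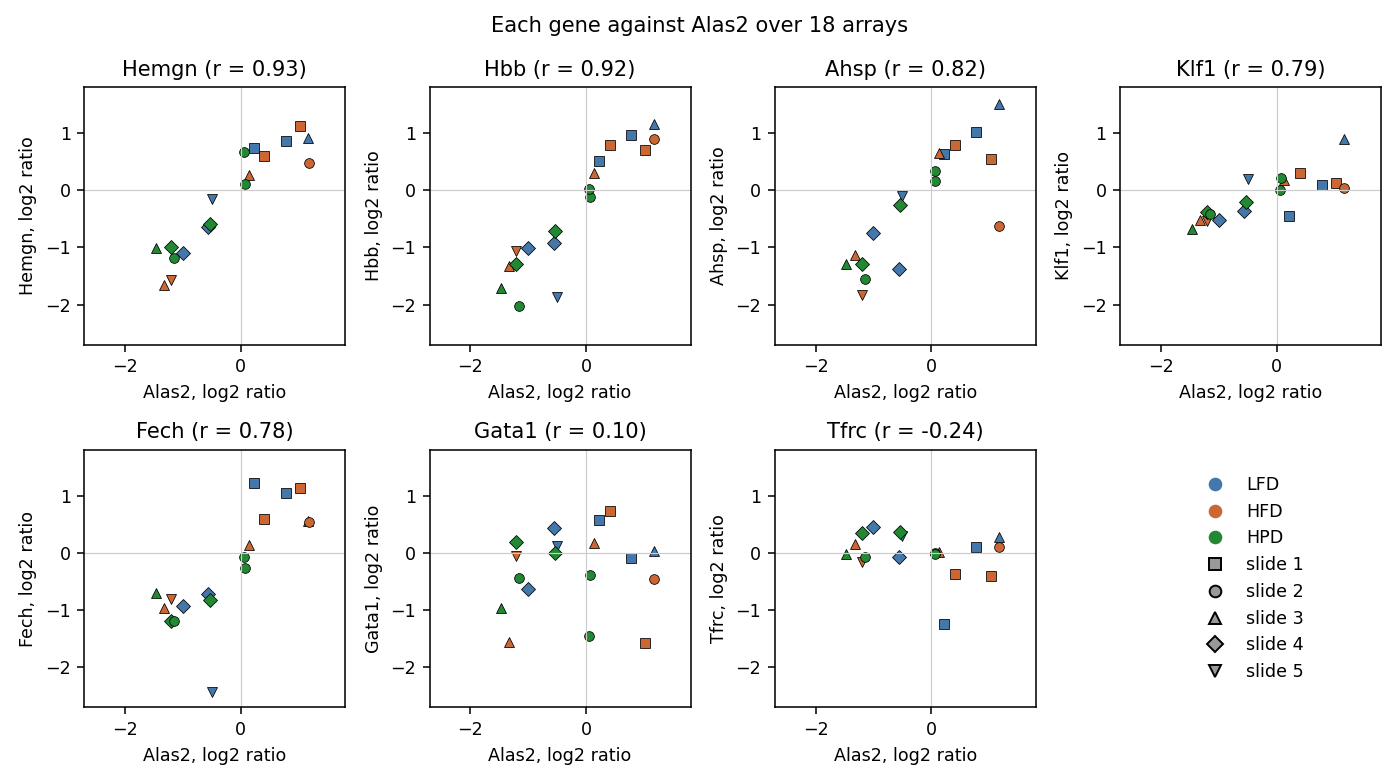
Log2 ratio of 7 genes (vertical axes) against that of Alas2 (horizontal axes), a point for each of 18 rats, coloured by diet with symbols for the slide. Points follow a rising line for Hemgn (r = 0.93) and Hbb (0.92) and show none for Gata1 (0.10) or Tfrc (-0.24).

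Tfrc ran against Fech across the arrays, but not within slides. Their r was -0.57 and rho -0.53 (two-sided permutation, adjusted p = 0.0242 and 0.0456 over 28 pairs), -0.41 without the 2 arrays farthest from the Fech median and -0.15 within slides. LFD replicate 2, with the highest Fech ratio and the lowest Tfrc ratio, lay on slide 1.

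Gata1 followed platelet markers. Its r with the mean log2 ratio of the 9 platelet markers was 0.87 and rho 0.86 (two-sided permutation, adjusted p = 0.00056 and 0.00028 over 56 pairs of a gene and a marker list). The r was 0.83 without the 2 rats farthest from the Gata1 median, 0.90 within slides and 0.87 within diets. Single markers ranged from 0.60 for Pf4, a chemokine of platelet granules, to 0.89 for Gp9, a part of the platelet receptor for von Willebrand factor. High r with Gata1 was more common than with Alas2 over all probes, where 1.35% exceeded 0.8 with Gata1. The platelet list gave -0.03 for Alas2 (rho 0.09), 0.07 for Hbb (rho 0.05) and 0.04 for Fech (rho 0.05), with adjusted p of 0.907 to 1.

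HFD replicate 2 and HPD replicate 3, the lowest rats for platelet markers at -2.21 and -1.38, were among the 3 lowest for Gata1. HFD replicate 1 and LFD replicate 2, the highest at 1.03 and 1.30, were the highest for Gata1. Below 0 in HPD against LFD were 9 of 9 platelet markers, with a median of -0.60 and 0 called by limma (0 at an unadjusted p under 0.05), where 45% of all genes were below 0. The part of platelet RNA in the Gata1 values was not tested.

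**Figure D5:**
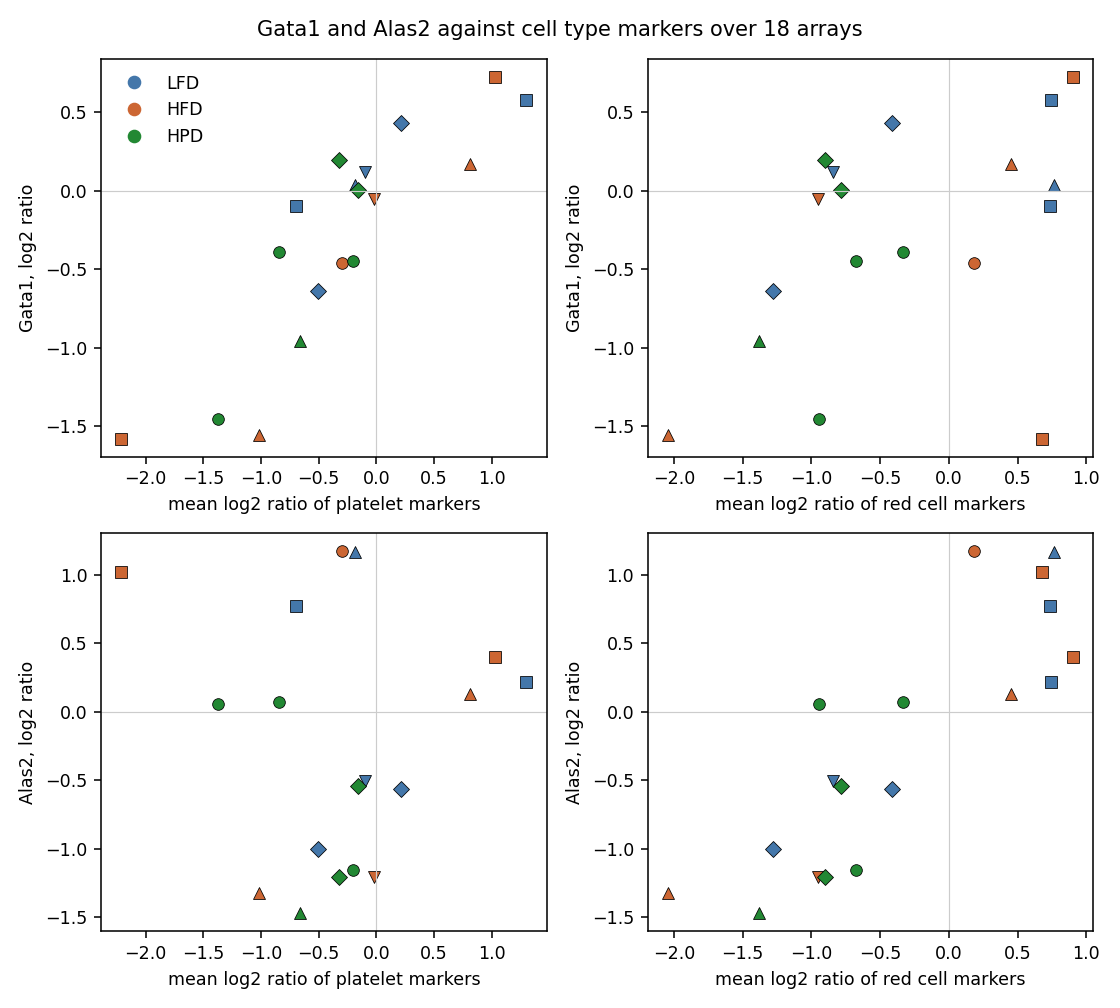
Log2 ratio of Gata1 (upper panels) and Alas2 (lower panels) in 18 rats against the mean log2 ratio of 9 platelet markers (left) and 6 red cell markers (right), coloured by diet with symbols for the slide as in the other plots. Gata1 rises with the platelet markers (r = 0.87) and Alas2 with the red cell markers (r = 0.85).

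Alas2, Hemgn, Hbb, Fech, Ahsp and Klf1 followed red cell markers. With the mean of the 6 red cell markers, among them the anion exchanger Slc4a1, r was 0.85 for Alas2 (rho 0.86), 0.85 for Hemgn (0.80), 0.84 for Hbb (0.79), 0.79 for Fech (0.75), 0.76 for Ahsp (0.74) and 0.66 for Klf1 (0.72). Their adjusted permutation p over the 56 pairs ran from 0.0007 to 0.0235 for r and 0.00028 to 0.00861 for rho. Within slides these r were 0.61 to 0.80, and without the 2 farthest rats 0.58 to 0.86. Gata1 gave 0.45 (rho 0.49, adjusted permutation p = 0.297 and 0.201), but 0.57 without the 2 farthest rats and 0.67 within slides, which lie near or within the ranges of the other 6. Single red cell markers differed: r with Alas2 ran from 0.21 for Rhag, a Rh-associated glycoprotein, to 0.92 for Add2, and r with Gata1 from 0.17 for Add2 to 0.67 for Rhag. Below 0 in HPD against LFD were 6 of 6 red cell markers, with a median of -0.76 and 0 called, where 45% of all genes were below 0. The share of red cells or reticulocytes in each sample was not tested.

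NK cell markers were the one further list that passed with a member. Tfrc ran against their mean at r = -0.62 (rho -0.72, adjusted permutation p = 0.029 and 0.00861 over the same 56 pairs), with -0.52 without the 2 farthest rats and -0.26 within slides. Fech ran with it at r = 0.61 (rho 0.58, adjusted permutation p = 0.0438 and 0.0804), with 0.50 without the 2 farthest rats and 0.27 within slides. Both relations were thus smaller within slides.

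Related genes were taken from 5 lists, and limma called 0 genes of any list in any comparison. Of 22 measured genes for the red cell membrane and enzymes, 20 were below 0 in HPD against LFD, where 45% of all 21595 genes were. The median of the list was -0.35 against 0.02 for all genes, and 2 had an unadjusted p under 0.05 (2.97% of all genes did). These 2 were Aqp1, a water channel, from 0.08 ± 0.90 in LFD to -0.91 ± 0.49 in HPD (SD, n = 6, adjusted p = 1 by limma), and Add2, beta adducin of the membrane skeleton, from 0.14 ± 1.03 to -1.08 ± 0.85 (adjusted p = 1). The list also holds all 6 red cell markers above. In it, 9 of 22 genes had an r with Alas2 above 0.8, up to 0.94 for Car2.

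The rest of the haem pathway did not share the pattern of Alas2. Its 14 other genes had a median r with Alas2 of -0.11, from -0.58 for Cpox, the coproporphyrinogen oxidase, to 0.30 for Ppox, the protoporphyrinogen oxidase. In HPD against LFD 6 of 14 were below 0, with a median of 0.01, where 45% of all genes were below 0. These are descriptions over 18 arrays that share slides and the reference pool.

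In HPD against LFD, 45% of all genes were below 0. Among 5 other globin genes 4 were, the alpha globin Hba-a3 at -0.74 ± 0.53 and the theta globin Hbq1 at -0.29 ± 0.30 (log2 ± SE, adjusted p = 1 by limma). Of 13 other erythroid regulators, 8 were below 0, with a median of -0.08. Nfe2, a factor of erythroid and megakaryocytic cells, stood at -0.68 ± 0.40 and Epor, the erythropoietin receptor, at -0.25 ± 0.14. Their highest r with Alas2 was 0.41, for Trim58. Of 12 genes for iron uptake, storage and haem breakdown, 10 were below 0, with a median of -0.13, and the highest r with Alas2 was 0.72, for Ncoa4. Slc25a37, the mitochondrial iron importer mitoferrin, stood at -0.45 ± 0.27 and Slc40a1, the iron exporter ferroportin, at -0.74 ± 0.51. Nfe2, Epor, Slc25a37 and Slc40a1 each had an adjusted p of 1 by limma.

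Genes most like the members were ranked by their r with the mean log2 ratio of the 8 member genes over 18 arrays, among 10245 other named genes, as a description. The closest were Car2 (carbonic anhydrase, r = 0.97), Rhd (a Rh blood group protein, 0.97), Selenbp1 (a selenium-binding protein, 0.96), Rsad2 (an interferon-induced antiviral gene, Best5 in the files, 0.96) and Hba-a3 (0.95). Alox15, a lipoxygenase of reticulocytes, followed at 0.95, then Nrtn, a neurotrophic factor, at 0.93. Slc4a1, the red cell anion exchanger, and Epb42, a protein bound to it, each reached 0.92, and Aqp1 0.91. In HPD against LFD all 10 stood below 0, from -0.44 for Car2 to -1.23 for Slc4a1. Genes picked for following the members share their diet means by that choice, so this direction is no separate observation.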

How the data were processed

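RNA of 18 rats was hybridised to Agilent rat 4x44K arrays, 1 rat per array in Cy5 against a Cy3 pool, with no dye swap described. Per the submitters' processing notes, Agilent Feature Extraction 10.5.1.1 made the scanner outputs. Per the file headers, they give each spot's intensity on a linear scale, background-subtracted and dye-normalized in the processed columns used here, beside other columns, flags of 0 or 1. A second table deposited by the authors holds log2 values for 20256 probes (column medians 8.40, centring unknown), whose differences correlated at 0.886 with those used here (slope 0.696), so it served only as an alternative.

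Of 45018 spots, 43379 were not controls. Outlier spots were left out, spots of a probe averaged, and the log2 of processed Cy5 over Cy3 signal taken. Diet means were fitted by limma 3.58.1 (R 4.3.3) over all 18 arrays, with Benjamini-Hochberg adjustment over 25207 probes and a threshold of 0.05; the fit was tested on simulated data. For a gene with several probes the brightest was used. Named genes are the members, the 10 most like their mean, and up to 4 genes per pathway list by smallest p. Correlations used two-sided permutation tests with 100000 resamples. Slides were numbered from the array barcodes. Probe positions are on rn4 per the file headers, and promoters, from RefSeq, are on GRCr8; 19524 of 41012 probes matched its gene table. Precision is limited by there being 6 arrays per diet. The members and lists were chosen with earlier results of these data known. Replicates are taken as separate rats, as the labels describe them. Alternatives covered background correction, normalization, filters, Cy5 alone, slide and replicate blocks, array weights, the conflicting label and each array left out. Some genes of the lists are not reported here by name.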

Additional observations from a re-analysis of the deposited data

Results flagged for a closer look

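Tfrc in LFD replicate 2, at a log2 ratio of -1.24, lay far from the other 5 LFD rats, whose nearest value was -0.07. The gap made up 0.687 of the range of that diet, above Dixon's critical value for 6 samples. It was 1 of 24 groups tested, and chance marks about 1 in 20 groups. The second Tfrc probe was also lowest on this array, at -0.86. Without it, Tfrc in HPD against LFD stood at -0.11 in place of 0.13.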

How the results depend on the processing

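No member passed limma's test under any setting tried; the lowest adjusted p was 0.553. For HPD against LFD, array weights gave 2 probes and leaving out each array gave 0 to 1 (Rarres2 without LFD replicate 2, as with weights), with 716 probes at an unadjusted p under 0.05 in the fit reported, 2347 with weights and 2248 without LFD replicate 6. Outside single left-out arrays, 339 of 360 gene differences kept their direction. Those that turned lay between -0.231 and 0.174 after turning, but some had moved far. Fech in HPD against LFD stood at -0.497 in the fit reported, and in HPD against HFD Ahsp stood at -0.381 and Hemgn at -0.373. For HFD against LFD, Alas2 stood at -0.027 with quantile scaling, -0.159 with Cy5 alone, -0.0602 in the deposited table, -0.231 and -0.0927 with slide as a fixed and random block, -0.0826 without slide 1 and -0.152 with the conflicting array as HFD, where Hbb stood at -0.0513; normexp on all spots gave Klf1 0.037 and Hemgn 0.0174. For HPD against LFD, Tfrc stood at -0.0529 with Cy5 alone, -0.0312 with slide as a fixed block, -0.0785 with array weights and -0.14 without slide 1, where Fech stood at 0.174. For HPD against HFD, the fixed slide block gave Ahsp 0.0826, Gata1 0.0207 and Tfrc -0.0191, and leaving out slide 1 gave Ahsp 0.0863 and Hemgn 0.119. The causes were not tested. With each array left out in turn, HFD against LFD ranged from -0.0881 to 0.52 for Hbb, -0.211 to 0.288 for Alas2, -0.131 to 0.601 for Fech, -0.144 to 0.14 for Klf1, -0.48 to 0.0743 for Hemgn and -0.326 to 0.0138 for Tfrc; HPD against LFD from -0.113 to 0.227 for Tfrc; and HPD against HFD from -0.273 to 0.187 for Gata1. The correlation of Tfrc with Alas2 was 0.292 within slides and 0.0619 without slide 1, the last chosen after seeing the data. By the correlation of arrays, replicate numbers did not pair the rats: 16 pairs of equal number ran from -0.317 to 0.228. The members followed replicate number in part. The mean of Hbb, Alas2, Fech, Ahsp, Klf1 and Hemgn was 0.48 to 1.03 in LFD replicates 1 to 3. In LFD replicates 4 to 6 it was -0.88 to -0.77. In HFD it was 0.41 to 0.77 in replicates 1 to 3, -1.15 and -1.17 in 4 and 5, and 0.28 in 6. HPD replicates 1 and 3 were at 0.03 and 0.17, the other HPD rats at -1.25 to -0.52. A replicate block left 0 probes called in each comparison and gave Gata1 0.00645 for HPD against HFD. For HPD against LFD it lowered the SE of Hbb from 0.555 to 0.38. The SE of Alas2 went from 0.472 to 0.314 and that of Hemgn from 0.508 to 0.345. For Gata1 the SE rose from 0.375 to 0.453, and for Tfrc from 0.224 to 0.242. All 9 member probes used were above background on 18 of 18 arrays, and having 6 arrays per diet limits the precision.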

Other observations

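The brightest globin probes differed between arrays in the pool channel as well, although the same pool is described for every array. For the alpha globin probe, Cy3 ran from 127000 intensity units on HFD replicate 3 to 346000 on LFD replicate 6, and Cy5 from 131000 on HPD replicate 5 to 545000 on HFD replicate 2. After centring each array, its Cy5 and Cy3 correlated at r = -0.78 and rho -0.69 over 18 arrays (two-sided permutation, adjusted p = 0.00231 and 0.0119 over 11 probes), with r = -0.82 without the 2 farthest arrays and -0.76 within slides. The Hbb-b1 probe gave -0.57 and -0.69 (adjusted p = 0.081 and 0.0119), -0.83 without the 2 farthest and -0.40 within slides. Alas2 gave -0.18 (rho -0.28, adjusted p = 0.663 and 0.444) and Hbb -0.27 (rho -0.44, adjusted p = 0.436 and 0.155). Without the 2 farthest arrays r was -0.29 for Alas2 and -0.67 for Hbb, and within slides 0.35 and 0.03. The SD of the alpha globin log2 ratio was 1.03, against 0.55 for its Cy5 alone, and that of Alas2 was 0.90 against 0.81.

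Monocyte markers also stood below 0 in HPD against LFD, 7 of 7 with a median of -0.34, NK cell markers did in 6 of 7 (median -0.11), neutrophil markers in 3 of 5 (-0.16), T cell markers in 5 of 9 (median near 0) and B cell markers in 3 of 6 (0.02). Limma called 0 of them, and at an unadjusted p under 0.05 it gave 1 neutrophil marker, lower in HPD, and 0 of the other 4 lists. Of all genes, 45% were below 0 in HPD against LFD. Embryonic Hbe1 had the widest LFD spread of the globin genes measured, -0.52 ± 2.03 (SD, n = 6), and an r of -0.32 with Alas2.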
